A study of Mus musculus with 9 samples.

Results

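The core circadian clock of the mouse liver was examined through 10 genes, chosen by name out of the 27179 genes of the expression table: Clock, Npas2 and Bmal1, the Period genes Per1, Per2 and Per3, the Cryptochrome genes Cry1 and Cry2, and the Rev-erb genes Nr1d1 and Nr1d2. All 10 were present in the table and all 10 passed the minimum mean of 10 normalized counts, as did 12993 genes in all. Both groups were C57BL/6J mice of wild-type (WT) genotype, kept on chow ad libitum with 12 h of light and 12 h of dark, and injected behind the eye at 17 months of age with an AAV8 vector. The vector carried saCas9, a compact Cas9 nuclease, with TBG as its promoter; TBG works in hepatocytes, so expression of the nuclease is directed to these and not to other liver cells. Its U6-driven guide was directed at Ccnd1, which encodes cyclin D1, in 5 mice (sgCcnd1), and at Rosa26, a locus commonly cut as a neutral control, in 4 mice (sgRosa26). Polyadenylated RNA from the m-lobe, frozen 3 weeks after injection, was sequenced in bulk, and each library came from a separate mouse according to its title. The labels give no hour of harvest, sex or batch. The columns could be matched to a group but not to a numbered replicate, so the sgRosa26 libraries are called A to D and the sgCcnd1 libraries E to I, in column order and with no pairing.

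The circadian clock is a feedback loop of transcription that runs in nearly every cell. BMAL1 pairs with CLOCK, or with its relative NPAS2, and the pair binds E-box sequences to switch on the Period, Cryptochrome and Rev-erb genes. The PER and CRY proteins then return to the nucleus and block the pair that made them, while the REV-ERB proteins, encoded by Nr1d1 and Nr1d2, repress Bmal1, Npas2, Clock and Cry1 through shared elements that the ROR receptors activate. D-box sequences, read by DBP, TEF and HLF and blocked by NFIL3, add a further arm. In mouse liver the transcripts therefore peak one after another: Bmal1, Npas2 and Clock first, then Nr1d1, then Nr1d2 and Per3, then Per1 and Cry2, then Per2, and last Cry1, before the cycle starts again.

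These elements could be read in the promoter windows of the clock genes, which are shown because the loop and its D-box arm act through such elements. RefSeq windows (GRCm38.p6, from 250 bases before to 50 bases after a start site) were present for 9 members, in 13 windows. Per2 had no window in the table used. Searched on both strands, the E-box CACGTG was found in the windows of Per1 and Cry1, the D-box (TTATGTAA or TTACGTAA) in that of Per3, and the ROR/REV-ERB element (TAGGTCA or TGGGTCA) in a window of Bmal1. Over all 27025 genes with windows in the table, 8.09% held the E-box in a window, 1.23% the D-box and 7.35% the ROR/REV-ERB element. Only these exact letters were searched in these windows, so a member without a match may hold a variant or a more distant element. A match describes the sequence and does not show that a protein binds there. In the sequences that follow, written 5′ to 3′ on the gene's own strand, capitals mark the matched element. For Bmal1 the 30 bases around the element are given (chr7:113207529-113207558, plus strand), in which the element begins at base 31 after an annotated start. For the others the 250 bases before the start are given: Per1 at chr11:69098699-69098948 on the plus strand, Per3 at chr4:151044666-151044915 on the minus strand, and Cry1 at chr10:85185055-85185304 on the minus strand.
Bmal1: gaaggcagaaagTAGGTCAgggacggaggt
Per1: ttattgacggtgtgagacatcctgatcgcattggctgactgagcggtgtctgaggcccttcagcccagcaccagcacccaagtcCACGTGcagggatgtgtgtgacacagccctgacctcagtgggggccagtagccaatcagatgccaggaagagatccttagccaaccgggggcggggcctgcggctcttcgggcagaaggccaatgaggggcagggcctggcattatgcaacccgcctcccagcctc
Per3: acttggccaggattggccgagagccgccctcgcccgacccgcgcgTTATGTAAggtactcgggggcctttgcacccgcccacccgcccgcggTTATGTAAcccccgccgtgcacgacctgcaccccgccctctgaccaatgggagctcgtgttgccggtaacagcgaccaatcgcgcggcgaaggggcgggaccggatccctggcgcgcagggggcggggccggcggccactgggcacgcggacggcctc
Cry1: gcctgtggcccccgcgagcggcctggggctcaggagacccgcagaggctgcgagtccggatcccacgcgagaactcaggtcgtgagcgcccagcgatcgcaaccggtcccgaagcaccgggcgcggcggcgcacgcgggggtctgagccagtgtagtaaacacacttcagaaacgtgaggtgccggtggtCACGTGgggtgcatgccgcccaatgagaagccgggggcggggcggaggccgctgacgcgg
The E-box of Per1 began 166 bases before the start and that of Cry1 60 bases before it. Per3 held its D-box at 2 places, beginning 205 and 158 bases before the start.

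Depth was between 10.8 and 20.2 M reads per library, and the groups overlapped in depth (means ± SD of 15.4 ± 2.09 M over the 4 sgRosa26 libraries and 16.3 ± 3.50 M over the 5 sgCcnd1 libraries). Ccnd1, the targeted gene, fell from 744 ± 110 to 362 ± 40.6 normalized counts (log2 fold change -1.03, SE 0.115, limma adjusted p = 0.0116), with all 5 sgCcnd1 libraries below all 4 controls. No gene was called lower, Ccnd1 included, when B, D, F, H or I was left out. Library H stood apart: the summed level of 4 Y-linked genes was 2.00 normalized counts there and 1619 to 2834 in the other 8, and the macrophage receptor gene Marco was at 376 there and 9.15 to 125 elsewhere. Hepatocyte markers summed to 1.72 to 2.01 M normalized counts in sgRosa26 and 1.61 to 2.08 M in sgCcnd1, and none of the 7 was at 0. All 10 leukocyte markers were detected and all 10 had lower means in sgCcnd1, 8 of them at an unadjusted limma p under 0.05 (5.74% of all genes were lower at that threshold) and none after adjustment, with sums of 3419 to 4583 against 2021 to 3225. Of 5 stellate markers 4 had lower means, 2 at that threshold, with sums of 3234 to 5121 against 2928 to 4334, and of 5 cholangiocyte markers 1 (Sox9) was lower at it, with sums of 928 to 1906 against 750 to 1165. Kupffer cell markers (3 higher, 3 lower) and endothelial markers (2 higher, 3 lower) held none at that threshold. Their sums were 1725 to 2612 against 1729 to 2266, and 1686 to 2544 against 1918 to 2709, in that order. In bulk RNA, fewer cells of a type and less RNA per cell cannot be told apart.

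Among the clock genes, the difference between the groups with the smallest p was that of Npas2, and it did not pass the adjusted threshold of the limma fit. Npas2 had a mean of 47.3 normalized counts in sgCcnd1 against 116 in sgRosa26, with no overlap between the libraries. Bmal1 was on average lower too, at 257 against 346, and Nr1d2 and Nr1d1 were higher, at 1272 against 937 and 2647 against 2040. Of the 10 members, 0 passed an adjusted p of 0.05 in limma, where 0.0077% of all genes tested did, which is 1 gene, Ccnd1. At an unadjusted limma p under 0.05 there were 4 members (Npas2 and Bmal1 lower, Nr1d1 and Nr1d2 higher), against 11% of all genes. Without library B there were 2, Npas2 and Nr1d2, and over the fits that each lacked 1 library there were 2 to 5. All genes split into 678 higher and 746 lower at that threshold, and into 525 and 878 after 75th percentile rescaling, which left 3 members. Groups without overlap were found for 1 member, Npas2, against 3.89% of all genes. The direction of the means was higher in sgCcnd1 for 6 members and lower for 4. The median log2 fold change was 0.11 over the members and 0.01 over all genes, and the median of its absolute size was 0.34 against 0.12. The members also varied more within groups (median SD 0.33 on the log2 scale against 0.20). The larger absolute size can therefore not be read as a group effect by itself.

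**Figure D1:**
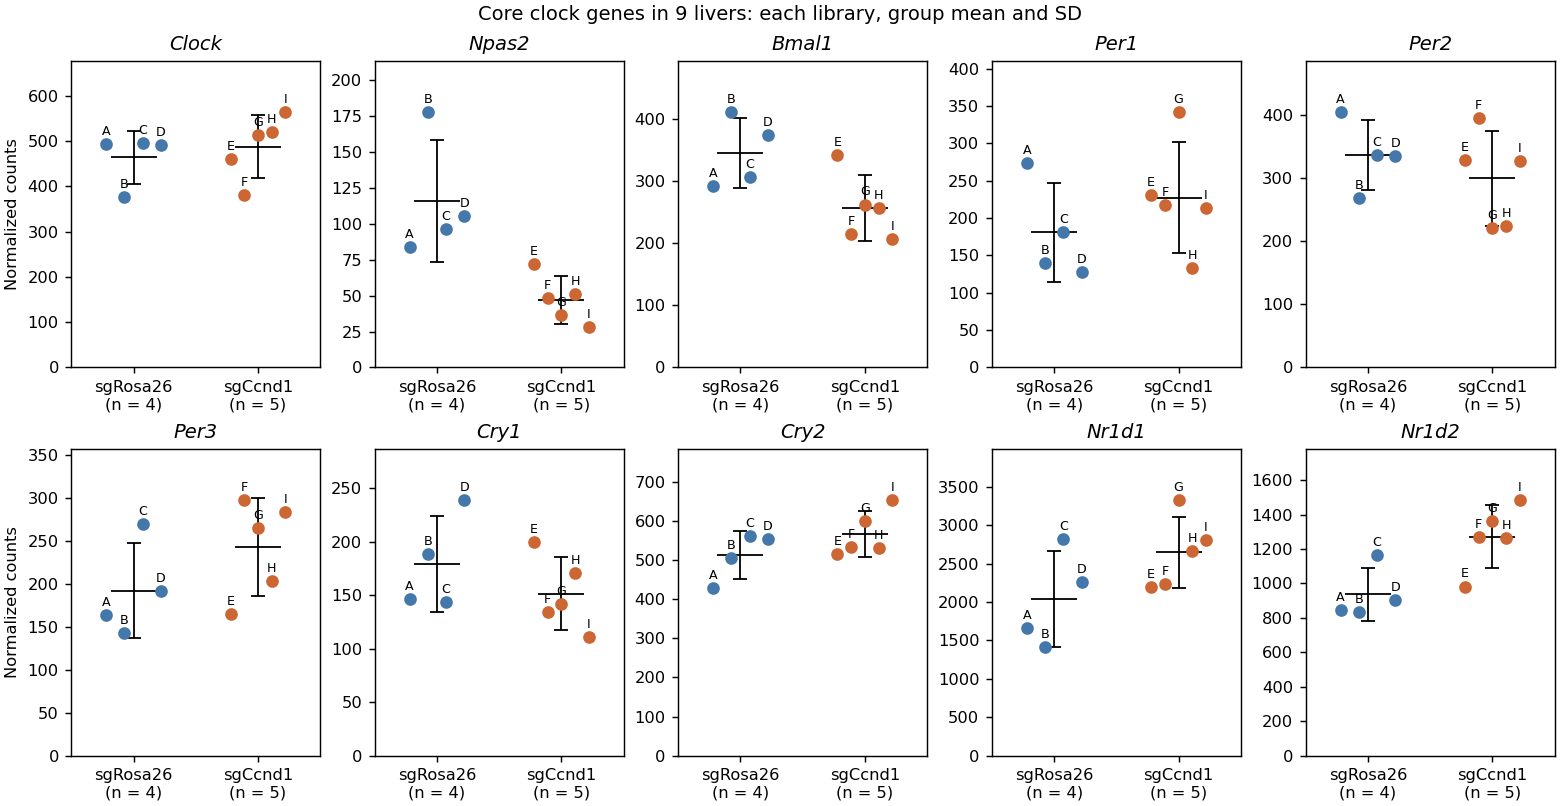
Normalized counts of each clock gene (vertical axes, starting at 0) in each library (points, with the library's letter), by group, with the group mean and SD as bars. The groups are separate for Npas2, where all 5 sgCcnd1 libraries lie below all 4 sgRosa26 libraries, and overlap for the other 9 genes.

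Npas2 (chr1:39193702-39363240, plus strand, GRCm38) encodes the partner that can take the place of CLOCK beside BMAL1. It was at 83.6, 178, 96.7 and 106 normalized counts in libraries A to D and at 72.4, 48.3, 36.2, 51.0 and 28.4 in E to I. Library B was the highest of the 9 and library I the lowest, and E, the highest of the sgCcnd1 group, lay just under A, the lowest control. The means were 116 ± 42.3 (SD, n = 4) and 47.3 ± 16.8 (SD, n = 5), so the sgCcnd1 mean was 40.7% of the control mean. On the log2(normalized count + 1) scale the difference was -1.29 (SE 0.27, 95% interval -1.87 to -0.70). It ranked 24th by p among the 12993 genes, with a limma adjusted p of 0.225 and an exact two-sided permutation p of 0.0159, unadjusted, where 0.00794 is the smallest that 4 against 5 libraries allow. DESeq2, run on the recovered reads, gave Npas2 an adjusted p of 0.00362, and Npas2 was the 1 member among the 104 genes it called (0.8% of all genes). The edgeR model with TMM scaling called 0 members and 1 gene in all (0.0077%). Leaving out single libraries moved the difference between -1.45 and -1.06, and without library H it was -1.33. Npas2 is also the least deeply sampled member: its fewest reads were 20, in library I, where the 95% Poisson interval of 17.3 to 43.8 normalized counts covers counting error only. The summed leukocyte markers had the same highest library in each group as Npas2, at 4583 in B and 3225 in E. The lowest sums were 3419 in D and 2021 in H. These sums lean on 1 gene, Cd74, which was at 2374 in B and at 570 in H, its lowest library, against 894 in I. The part of the leukocyte markers in the Npas2 difference was not tested.

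Bmal1 (chr7:113178471-113314126, plus strand) encodes the obligate partner of CLOCK and NPAS2. Its level was 293, 411, 306 and 374 normalized counts in A to D and 342, 215, 262, 257 and 207 in E to I. As for Npas2, B was the highest library and I the lowest. Libraries F, G, H and I were below every control, while E lay within the control range, so the groups overlapped by 1 library. The means were 346 ± 56.2 and 257 ± 53.5, a log2 difference of -0.44 (SE 0.153, 95% interval -0.77 to -0.11) with a limma adjusted p of 0.337 and an exact permutation p of 0.0635. Without E, Bmal1 and Nr1d2 joined Npas2 among the members whose groups did not overlap, and without C Nr1d2 did. Both counts, 3 and 2, stand against a higher background, 7.73% of all genes without E and 6.85% without C.

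Clock (chr5:76209868-76305603, minus strand) encodes the regular partner of BMAL1. It was at 493, 376, 495 and 490 normalized counts in A to D and at 460, 380, 514, 520 and 563 in E to I. Libraries B and F were low and the other 7 lay between 460 and 563, with no separation of the groups. The log2 difference was 0.07 (SE 0.126, 95% interval -0.20 to 0.34, limma adjusted p = 0.877), and it turned to -0.028 without library B. Taken as normalized count + 1, the highest level of Clock over the 9 libraries was 1.50 times its lowest and that of Cry2 1.52 times. These were the narrowest ranges of the 10, where Npas2 spanned 6.09 times.

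The Period genes encode the repressors whose slow build-up sets the length of the cycle. Per1 (chr11:69095108-69109965, plus strand), which also answers quickly to hormones and feeding, was at 274, 140, 181 and 128 normalized counts in A to D and at 231, 218, 342, 133 and 213 in E to I. It was high in A and G and low in B, D and H, so each group held both high and low libraries. The log2 difference was 0.33 (SE 0.258, 95% interval -0.23 to 0.89, limma adjusted p = 0.66), from 0.17 without G to 0.55 without A. Per2 (chr1:91415977-91459351, minus strand) was at 405, 269, 337 and 335 in A to D and at 329, 396, 221, 224 and 328 in E to I. A and F were its high libraries and G and H its low ones, and G was thus the highest library for Per1 and the lowest for Per2. Its log2 difference was -0.19 (SE 0.178, 95% interval -0.58 to 0.20, limma adjusted p = 0.718), from -0.30 without F to -0.090 without G. Per3 (chr4:150997018-151044707, minus strand), whose printed promoter holds 2 D-box matches, was at 164, 143, 269 and 191 in A to D and at 165, 297, 265, 203 and 284 in E to I. Per3 was low in A, B and E and high in C, F, G and I, and the groups overlapped. The log2 difference was 0.35 (SE 0.205, 95% interval -0.10 to 0.79, limma adjusted p = 0.554), from 0.22 without B to 0.52 without C.

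The Cryptochrome genes encode direct inhibitors of the BMAL1 complexes. Cry1 (chr10:85131700-85185054, minus strand) was at 146, 188, 144 and 239 normalized counts in A to D and at 200, 134, 142, 171 and 111 in E to I. D was the highest library and I the lowest, and 3 of the 5 sgCcnd1 libraries were below every control. The log2 difference was -0.24 (SE 0.189, 95% interval -0.65 to 0.17, limma adjusted p = 0.664), from -0.35 without E to -0.091 without D. Cry2 (chr2:92403646-92434085, minus strand) was at 429, 506, 563 and 556 in A to D and at 516, 535, 600, 532 and 654 in E to I. The lowest Cry2 library was A and the highest was I, with 6 of the 9 between 506 and 563. Its log2 difference was 0.15 (SE 0.106, 95% interval -0.08 to 0.38, limma adjusted p = 0.632), from 0.063 without A to 0.19 without C. The intervals of Cry1 and Cry2 both include 0, and so leave room for a change in either direction.

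The Rev-erb genes encode nuclear receptors that repress Bmal1. Nr1d1 (chr11:98767932-98775377, minus strand) was at 1662, 1417, 2826 and 2254 normalized counts in A to D and at 2199, 2238, 3326, 2665 and 2807 in E to I. A and B were the lowest libraries, and C stood among the highest sgCcnd1 values, so 1 sgCcnd1 library (G) was above every control. The log2 difference was 0.41 (SE 0.186, 95% interval 0.01 to 0.81), with a limma adjusted p of 0.451 and an exact permutation p of 0.175. It was 0.25 without B and 0.58 without C. Nr1d2 (chr14:18204056-18239106, minus strand) was at 845, 836, 1163 and 903 in A to D and at 982, 1269, 1360, 1265 and 1483 in E to I. Of its 5 sgCcnd1 libraries 4 were above every control, and E lay below control library C. The means were 937 ± 154 and 1272 ± 185, a log2 difference of 0.44 (SE 0.129, 95% interval 0.16 to 0.72) with a limma adjusted p of 0.282, a rank of 224 by p and an exact permutation p of 0.0397. DESeq2 gave Nr1d2 an adjusted p of 0.119.

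**Figure D2:**
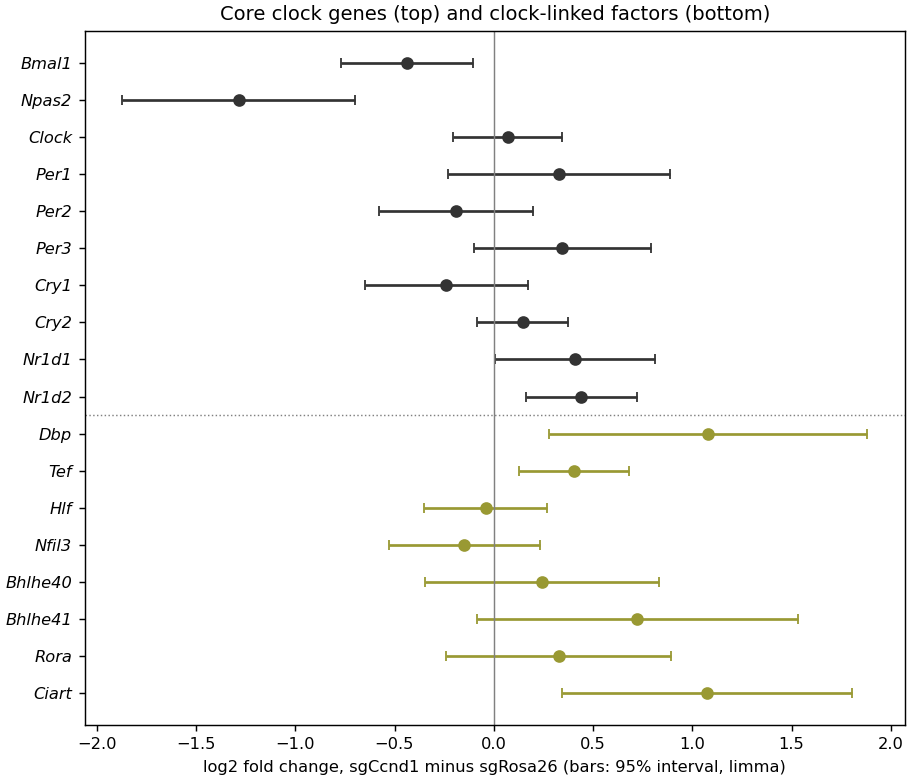
Log2 fold change of each gene, sgCcnd1 minus sgRosa26 (horizontal axis, limma, with 95% intervals as bars), for the 10 core clock genes above the dotted line and 8 clock-linked factors below it. The intervals of Npas2, Bmal1, Nr1d1, Nr1d2, Dbp, Tef and Ciart do not reach 0 before adjustment for the 12993 genes tested, and none of these genes passed after it.

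Set per kilobase of annotated exon, so that genes could be compared with one another, Nr1d1 had the highest level in the sgRosa26 livers, at 663 ± 205 normalized counts per kilobase (SD, n = 4). Nr1d2 followed at 173 ± 28.4 and Cry2 at 81.2 ± 9.76. These 3 were separated from each other and from the next gene by more than their SDs. Per2 (57.4 ± 9.44), Cry1 (53.7 ± 13.4) and Bmal1 (46.0 ± 7.47) came next and did not differ beyond their spread. Clock (33.8 ± 4.25), Per1 (32.1 ± 11.8), Npas2 (24.2 ± 8.82) and Per3 (20.0 ± 5.77) formed the low end, each within the spread of its neighbour. In the sgCcnd1 livers the order at the top was the same, with Nr1d1 at 860 ± 150 and Nr1d2 at 235 ± 34.2 per kilobase, while Npas2 was last at 9.87 ± 3.50, below Per3 at 25.3 ± 5.90. Annotated exons of Nr1d1 share 263 bases (8.55%) with Thra and those of Cry2 share 295 bases (4.67%) with D930015M05Rik, in each case on the opposite strand. Bmal1 shares 33 bases with Gm45355. Whether counting used strand is not given in the sources used here, so reads from these stretches could not be assigned to a gene with certainty.

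Within groups the members differed in how much they varied between mice. Their median within-group SD was 0.33 on the log2 scale, from 0.16 for Cry2 to 0.49 for Npas2, against 0.20 over all genes tested and 0.17 over the 8681 genes with a mean in the members' range. To see how they varied together, each gene's log2 level was taken relative to its own mean over the 9 libraries, the genes were set in the textbook order of peak time, and the libraries were set by Bmal1 minus Nr1d1, the pair that peaks far apart in the cycle. This order describes the libraries and was not used to group or test them.

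The difference Bmal1 minus Nr1d1 was 1.21 in B, 0.49 in A, 0.40 in D, 0.31 in E, -0.21 in C, -0.38 in H, -0.38 in F, -0.67 in G and -0.76 in I, all on the log2 scale. Controls B, A and D thus had a positive difference together with sgCcnd1 library E, and control C a negative one with the other 4 sgCcnd1 libraries. A was placed there by low Nr1d1, since its Bmal1 was the lowest of the controls. All 9 values moved by less than the spread between replicates with other pseudocounts and scalings, but some neighbours changed places. Under quantile normalization these were A and D (0.41 and 0.43) and H and F (-0.36 and -0.35). With a pseudocount of 10, H and F (both -0.37) did so too.

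Library B had the largest positive difference. There Npas2 (1.39), Bmal1 (0.51) and Cry1 (0.24) stood above their means, and Nr1d1 (-0.70), Per3 (-0.57), Per1 (-0.48), Nr1d2 (-0.40) and Clock (-0.33) below theirs. Library D had the same high activators (Npas2 at 0.64, Bmal1 at 0.37) and the highest Cry1 of all (0.58), together with the lowest Per1 (-0.61), but its Nr1d1 was near its mean (-0.03). Library A differed from both: Nr1d1 (-0.47), Nr1d2 (-0.38) and Per3 (-0.38) were low as in B, while Bmal1 was at its mean (0.02) and Per1 (0.48) and Per2 (0.39) were high.

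At the other end was library I. The order rests on Bmal1 and Nr1d1, so opposite signs of this pair in B and I follow from the choice of libraries. In library I all 8 genes named for B had the opposite sign. Npas2 (-1.22), Cry1 (-0.53) and Bmal1 (-0.48) were below their means, and Nr1d2 (0.43), Per3 (0.41), Nr1d1 (0.28), Cry2 (0.28), Clock (0.25) and Per1 (0.12) were above theirs. Library G combined low Npas2 (-0.88) with the highest Nr1d1 (0.53) and Per1 (0.80) and the lowest Per2 (-0.48). F had the highest Per3 (0.48) and high Per2 (0.35) with low Bmal1 (-0.43), Npas2 (-0.47) and Clock (-0.31). In H, Per1 (-0.56) and Per2 (-0.47) were low beside low Npas2 (-0.39) and high Nr1d1 (0.21).

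The remaining libraries crossed the groups. In E, an sgCcnd1 library, Bmal1 (0.24) and Cry1 (0.32) were high and Per3 (-0.37) and Nr1d2 (-0.16) low, as in the controls B and D, with Npas2 at 0.10. C, a control, had high Per3 (0.34) and Nr1d1 (0.29) and low Cry1 (-0.15), as in the sgCcnd1 libraries G and I, with high Npas2 (0.52) and a Bmal1 level close to its mean (0.08).

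**Figure D3:**
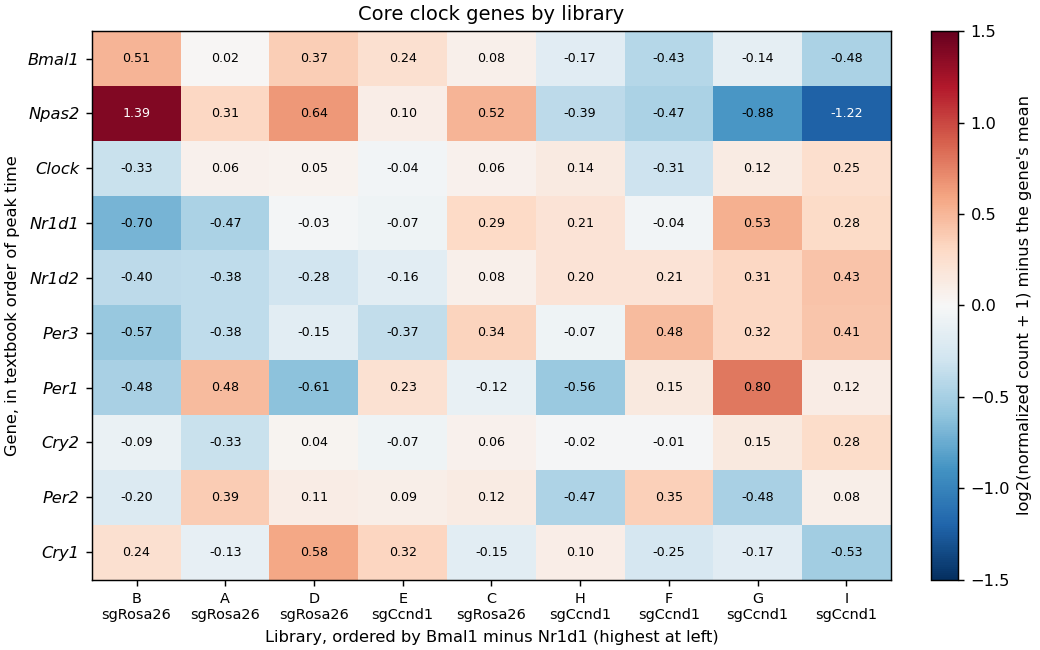
Log2(normalized count + 1) minus the gene's mean over the 9 libraries (colour and printed value), with genes in textbook order of peak time from top to bottom and libraries ordered by Bmal1 minus Nr1d1 from left to right. Bmal1 and Nr1d1 define the order, so their own trends across it are fixed in advance. Of the other genes, Npas2 and Cry1 are mostly above their means at the left and below at the right. Nr1d2 and Per3 are the reverse, and Per1 and Per2 follow no such order.

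The relation of each other member to Bmal1 was then tested over the 9 libraries by an exact permutation of all 362880 pairings, two-sided and adjusted over the 9 relations. Npas2 rose and fell with Bmal1 (Pearson r = 0.90, exact permutation p = 0.00131, adjusted p = 0.0118; Spearman rho = 0.90, exact permutation p = 0.00203, adjusted p = 0.0183). Cry1 also followed it (r = 0.83, exact permutation p = 0.00578, adjusted p = 0.0174; rho = 0.83, exact permutation p = 0.00827, adjusted p = 0.0248). Cry1 peaks late in the cycle, next to the return of Bmal1, and like Bmal1 is repressed by REV-ERB proteins. Their part in this relation was not tested. Nr1d2 ran opposite to Bmal1 (r = -0.85, exact permutation p = 0.00551, adjusted p = 0.0174; rho = -0.85, exact permutation p = 0.00607, adjusted p = 0.0248). Per3 did so as well (r = -0.79, exact permutation p = 0.0143, adjusted p = 0.0322; rho = -0.77, exact permutation p = 0.0214, adjusted p = 0.0481).

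The other 5 relations did not pass. Nr1d1, the classic antiphase partner of Bmal1, had r = -0.56 (rho = -0.47, exact permutation adjusted p = 0.206 for r). The values were -0.42 for Cry2, -0.42 for Per1, -0.33 for Clock and -0.08 for Per2, with exact permutation adjusted p from 0.335 to 0.841. For Clock, rho was -0.62 (exact permutation adjusted p = 0.154), and r moved with single libraries: without F it was -0.86 (exact permutation adjusted p = 0.0171), without I -0.11, and without B 0.028.

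Because the observed group means were unequal, although no member passed in limma, the relations were also taken on levels centred within each group. Because centred levels sum to 0 in each group, they were tested over the 2880 pairings within groups, a test chosen after seeing the data. None of the 4 relations then passed: r was 0.81 for Npas2 (exact permutation p = 0.0163, adjusted p = 0.0734), 0.85 for Cry1 (exact permutation p = 0.0125, adjusted p = 0.0734), -0.74 for Per3 (exact permutation adjusted p = 0.118) and -0.69 for Nr1d2 (exact permutation adjusted p = 0.157). By rank, rho was 0.72 for Npas2, 0.82 for Cry1, -0.72 for Per3 and -0.67 for Nr1d2, with exact permutation adjusted p from 0.128 to 0.135. Over all pairings of the 9 libraries, which ignore the groups, the centred r had exact permutation adjusted p of 0.0372 for Npas2 and Cry1. No single group holds 6 libraries, so r was not taken within a group alone. The 2 libraries farthest from the median of Bmal1 were B (411 normalized counts) and I (207). Without both, r was 0.77 for Npas2, 0.79 for Cry1, -0.71 for Nr1d2 and -0.63 for Per3, and none passed (exact permutation adjusted p = 0.212, 0.212, 0.24 and 0.296). All 4 kept the sign of r but were smaller in size, and 7 libraries also give a test less power than 9. The part of each was not tested. Leaving out 1 library at a time, by Pearson's r Npas2 and Cry1 each passed in 8 of 9 fits (not without I), Nr1d2 in 7 (not without B or I) and Per3 in 4 (not without B, E, F, G or I). By Spearman's rho Npas2 passed in 7 (not without B or I), Nr1d2 in 7 (not without B or I), Cry1 in 4 (without A, C, G or H) and Per3 in 2 (without A or C). Without library H, r was 0.89 for Npas2, 0.87 for Cry1, -0.84 for Nr1d2 and -0.82 for Per3, all 4 past the threshold by Pearson's r (exact permutation adjusted p = 0.0222, 0.0222, 0.0354 and 0.0411), while by rho Per3 did not pass (exact permutation adjusted p = 0.0827).

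**Figure D4:**
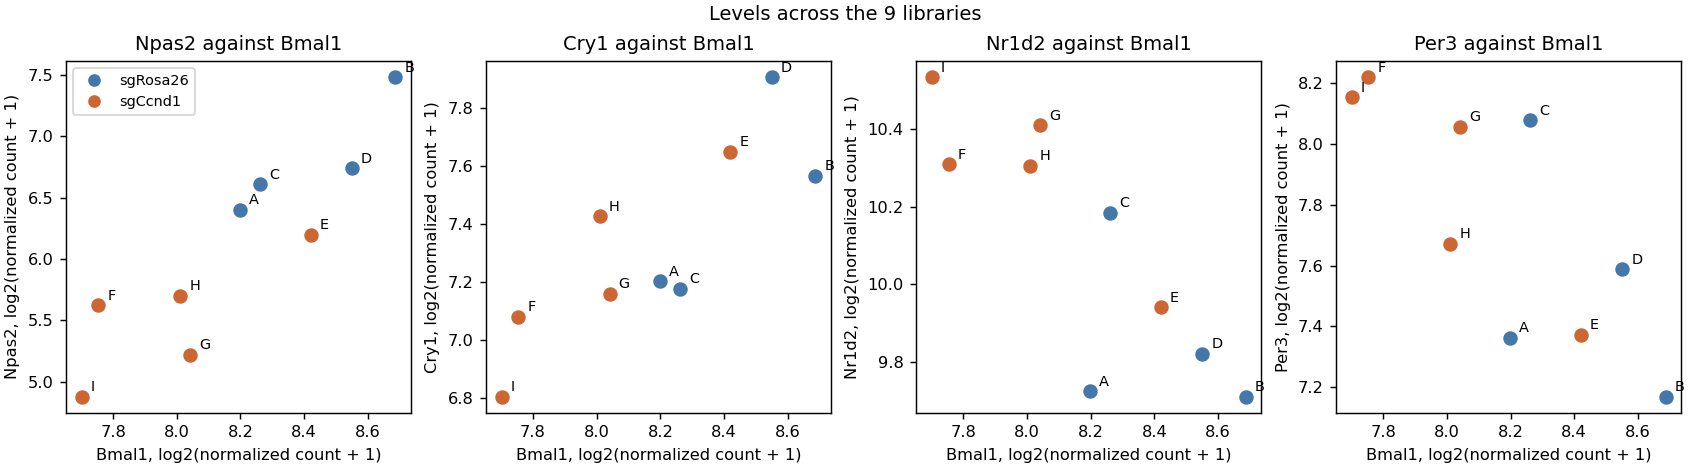
Log2(normalized count + 1) of Npas2, Cry1, Nr1d2 and Per3 (vertical axes) against that of Bmal1 (horizontal axes), 1 point per library, coloured by group; the axes do not start at 0. Npas2 and Cry1 climb with Bmal1 from library I to libraries B and D, and Nr1d2 and Per3 descend.

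Among the 10410 genes whose mean reached 50 normalized counts, those with the highest Pearson r to Bmal1 over the same 9 libraries included Lonrf3 (0.96), Ckap4 (0.95), Arhgap45 (0.95) and C1qa (0.93), and Npas2 ranked 14th and Cry1 72nd (36th and 15th on levels centred within each group). Those with the lowest included Gfm1 (-0.95), Sds (-0.94), Mkln1 (-0.94) and Ndufs1 (-0.92). From that end Nr1d2 ranked 71st and Per3 177th (259th and 169th on the centred levels). C1qa encodes a complement subunit made by macrophages, and Sds encodes serine dehydratase, a hepatocyte enzyme of amino acid breakdown. These are the ends of a ranking over all 10410 genes and carry no test.

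The factors that link the core loop to its D-box and ROR arms were taken as a list of 10, of which Rorb was listed at 0 in every library and 9 were tested. None passed the adjusted threshold in limma, and 3 were higher in sgCcnd1 at an unadjusted p under 0.05, against 5.22% of all genes. The median log2 difference of the 9 was 0.33, against 0.01 over all genes. Dbp, the D-box activator that is among the strongest direct targets of BMAL1 and CLOCK, was at 130, 99.0, 348 and 234 normalized counts in A to D and at 179, 541, 422, 409 and 488 in E to I. Its low libraries were A, B and E, as for Per3, and its log2 difference was 1.08 (SE 0.369, limma adjusted p = 0.334). Tef, another D-box activator, had means of 1350 ± 161 and 1798 ± 283 (log2 difference 0.41, SE 0.128, limma adjusted p = 0.306). Ciart, which encodes a repressor of the BMAL1 complexes, had means of 8.47 ± 3.24 and 18.8 ± 6.27 (log2 difference 1.07, SE 0.336, limma adjusted p = 0.306), and at such low counts the scale understates the change. Of the others, the log2 differences were 0.72 for Bhlhe41, 0.33 for Rora, 0.24 for Bhlhe40, -0.04 for Hlf and -0.15 for Nfil3, with limma adjusted p from 0.501 to 0.941.

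Enzymes and cofactors that act on clock proteins formed a list of 27, all tested, with a log2 difference above 0 in 20 and below 0 in 7 (6877 and 6116 over all genes) and none past the adjusted threshold in limma. At an unadjusted p under 0.05 there were 4, all higher, against 5.22% of all genes, and the median log2 difference of the 27 was 0.06. Usp2, which encodes a ubiquitin protease that acts on PER1 and BMAL1 and is itself rhythmic, was at 25.8, 36.8, 42.2 and 35.0 normalized counts in A to D and at 45.0, 64.5, 59.7, 60.0 and 93.7 in E to I. All 5 sgCcnd1 libraries lay above the controls, with E the nearest to them (log2 difference 0.85, SE 0.212, limma adjusted p = 0.253). Prkaa2, a catalytic subunit of AMP-activated kinase, had means of 1047 ± 181 and 1299 ± 173 (log2 difference 0.32, limma adjusted p = 0.399).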

How the data were processed

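Polyadenylated RNA of 9 livers was measured. The authors deposited a table of never-negative signal values, called normalized counts per the file's name, for 27179 genes. Trim Galore 0.6.7, HISAT2 2.2.1, featureCounts 2.0.3, FastQC 0.74, MultiQC and DESeq2 2.11.40.8, and the build mm10/GRCm38, are listed per the submitters' processing notes. The gene annotation and the use of strand are not given in the sources used here. In every library 100% of the deposited signal values were whole multiples of 1 number within 0.1 reads, so reads could be recovered, and the implied size factors had a mean ratio of 1 to those DESeq2 computes.

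On the log2 scale, log2(normalized count + 1) of the deposited values was tested with limma 3.58.1 (R 4.3.3; lmFit and eBayes with trend, two-sided, no covariates) over 12993 genes whose mean reached 10, adjusted by Benjamini-Hochberg with a threshold of 0.05. Fold changes are on that scale and understate changes of low genes. Exact permutation tests ran over 126 splits on the log2 scale. Alternatives were pseudocounts 0.1 and 10, no filter or a mean of 100, quantile and 75th percentile scaling, edgeR 4.0.16 and DESeq2 1.42.0 on recovered reads, and leaving out each library. The procedures were tested on simulated data. Coordinates and exon lengths came from a GENCODE annotation of GRCm38, and figures from matplotlib 3.10.9 in Python 3.11.15.

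All 10 members were named, with Ccnd1, the tested clock-linked factors, the 3 genes of each other list with the smallest p, and the 5 genes most and least like Bmal1, except for a few genes that are not reported here. The members and lists were chosen with earlier results of these data known.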

Additional observations from a re-analysis of the deposited data

Results flagged for a closer look

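Each clock gene and clock-linked factor was examined for a library far from the others of its group. Among 38 groups of values, 3 held such a library, where chance, at about 1 in 20 groups, gives 1.9. Clock was at 376 normalized counts in sgRosa26 library B, against 490 to 495 in the other 3 controls. Bhlhe40, which encodes a repressor that responds to several signals, was at 2763 in sgRosa26 library A, against 924 to 1233. Hlf was at 1013 in sgCcnd1 library I, against 645 to 747 in the other 4. Libraries B and I are also the ends of the order by Bmal1 minus Nr1d1.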

How the results depend on the processing

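No paired analysis was possible because column names hold no replicate, so the fit with a replicate block was not run. The number of members called, 0 by limma, was 1 with DESeq2 (Npas2) and 0 in every other alternative. Genes called higher, 0 by limma, were 34 with DESeq2, and genes called lower, 1 by limma, were 2 with quantile normalization, 70 with DESeq2 and from 0 to 2 when single libraries were left out (0 without B, D, F, H or I, 2 without E or G). The cause was not tested. Members without overlap, 1 in all libraries, were 1 to 3 when a library was left out, an alternative chosen after seeing the data. Over 18 alternatives no member but Clock changed direction: its log2 difference was -0.028 to 0.16 leaving out a library, and -0.028 without B. Npas2 had a limma or edgeR adjusted p of 0.0979 to 0.524, and no value at a minimum mean of 100. The r of Clock with Bmal1 was -0.86 to 0.028 leaving out a library and 0.44 without B and I, and that of Per2 was -0.22 to 0.15 and 0.13. Intervals from read depth cover counting error only, and the hour of each harvest is not in the labels, so phase could not be set against clock time.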

Other observations

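Rhythmic output genes of the liver formed a list of 12, of which 6 had a log2 difference (sgCcnd1 minus sgRosa26) above 0 and 6 below, 2 at an unadjusted limma p under 0.05 (both higher, against 5.22% of all genes) and none after adjustment. Gys2, the liver glycogen synthase, had means of 2272 ± 348 and 2907 ± 406 normalized counts (log2 difference 0.36, limma adjusted p = 0.337). Alas1, which starts heme synthesis, had means of 1531 ± 560 and 2865 ± 1334 (log2 difference 0.87, limma adjusted p = 0.349), and its highest library was H, at 4982. Por, the electron donor of microsomal cytochromes, had means of 2235 ± 140 and 2718 ± 670 (log2 difference 0.25, limma adjusted p = 0.526).

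Glucocorticoid-responsive genes, which follow a hormone with a daily rhythm, numbered 8, with a log2 difference above 0 in 5 and below 0 in 3, 1 higher and 1 lower at an unadjusted limma p under 0.05 (11% of all genes), and none past adjustment. Klf9 was at 771, 665, 1069 and 757 normalized counts in A to D and at 1143, 1054, 1244, 1603 and 1517 in E to I, so that control C lay just above F (log2 difference 0.69, SE 0.152, limma adjusted p = 0.227). Sgk1 went the other way, with a log2 difference of -0.58 (limma adjusted p = 0.433), and its highest library was A, at 846. Tsc22d3 differed by 0.19 (limma adjusted p = 0.596).

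Of 8 heat shock and cold-inducible genes that follow body temperature, 7 were tested, with a log2 difference above 0 in 5 and below 0 in 2. At an unadjusted limma p under 0.05, 3 were higher (5.22% of all genes), and 1 had no overlap between groups (3.89% of all genes). Hsp90aa1 was at 1013 to 1289 normalized counts in sgRosa26 and 1304 to 1450 in sgCcnd1, without overlap (log2 difference 0.27, limma adjusted p = 0.306). Hspa1b differed by 0.60 and Hsph1 by 0.31, with limma adjusted p of 0.361 and 0.449.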
